A study of Arabidopsis thaliana with 14 samples.

Results

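The binding of GFP-tagged iFLMbeta to chromatin was described here from read counts at all 13791 regions on chromosomes 1 to 5 in the iFLMbeta table, out of 43690 regions deposited for the 3 constructs of the series. FLM is a MADS-box transcription factor of Arabidopsis thaliana, and FLMbeta and FLMdelta are proteins made from alternatively spliced transcripts of the same gene. The iFLMbeta-GFP group had 2 libraries from Columbia-0 seedlings grown for 10 days at 23 °C, and the iFLMbeta control group had 2 libraries from seedlings of the same age and temperature with untagged FLM. Seedlings of both groups grew in long days and were taken at ZT 8 h, and tagged FLM was precipitated with an antibody against GFP, per the labels. The labels of the controls state an immunoprecipitation with untagged protein. The labels do not name the promoter of the tagged construct, the number of transgenic lines or plant pools, or whether native FLM was present. The p-values below therefore cover the spread of these 4 libraries alone, and that spread may be technical. In chromatin from whole seedlings, binding in fewer cells and weaker binding in each cell cannot be told apart.

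MADS-box proteins bind DNA as dimers at CArG boxes, short A/T-rich elements flanked by C and G. FLM belongs to the clade of FLC, and FLMbeta represses flowering together with the related protein SVP. Targets of this group of repressors include activators of flowering such as SOC1 and floral organ genes of the SEPALLATA family. No genome sequence was used here, so the regions are given by position and neighbouring genes only, in the coordinates of build TAIR10.

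The values of each region are its read counts in 2 GFP columns and 2 control columns. A ratio is log2 of (GFP reads + 1) over (control reads + 1), minus log2 of the ratio of the column sums over all 13791 regions. The labels do not tie a GFP column to a control column, although the authors gave a q-value per replicate. No pairing of iFLMbeta columns was assumed in these ratios. Where a range follows a mean log2 ratio below, it gives the lowest and highest value over the 4 possible pairings of a GFP with a control column. A region was taken as a bound locus, for description and with no test, where all 4 pairings reached a log2 ratio of at least 1 and each GFP column held at least 10 reads. The test was the quasi-likelihood test of edgeR on the counts of all regions, with an adjusted p of at most 0.05 by the Benjamini-Hochberg method. The authors had chosen the deposited regions on the same libraries, so both selections describe how far the counts separate and are not independent evidence of binding. With 2 libraries against 2 an exact permutation test of a single region cannot give a two-sided p below 0.33.

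The column sums over the 13791 regions were 194811 and 181951 reads in iFLMbeta-GFP, against 108460 and 52819 reads in the controls. Over all regions the median was 13 and 11 GFP reads, against 7 and 3 control reads. These are sums over deposited regions and not sequencing depths. The median mean log2 ratio of all regions was -0.15, and 35.5% of regions had a mean above 0. FLM itself had 1 deposited region, in an intron, with 31 and 41 GFP reads against 27 and 9 control reads, a mean log2 ratio of -0.18.

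In all, 47 regions met the count rule, or 0.341% of the 13791 regions. edgeR found 25 of 7337 tested regions higher in iFLMbeta-GFP, also 0.341%, and 0 lower. At an unadjusted p under 0.05 it gave 107 higher and 7 lower, and DESeq2 gave 20 higher and 0 lower at its adjusted threshold. Of the 25 called regions 24 were among the 47 loci, and the remaining one lay at AT5G06130. The loci spanned mean log2 ratios of 1.18 to 3.42 with a median of 1.84. They held 2.24% and 2.78% of the GFP reads, against 0.509% and 0.434% of the control reads. Their median GFP counts were 71 and 87 reads, against 11 and 5 control reads.

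**Figure D1:**
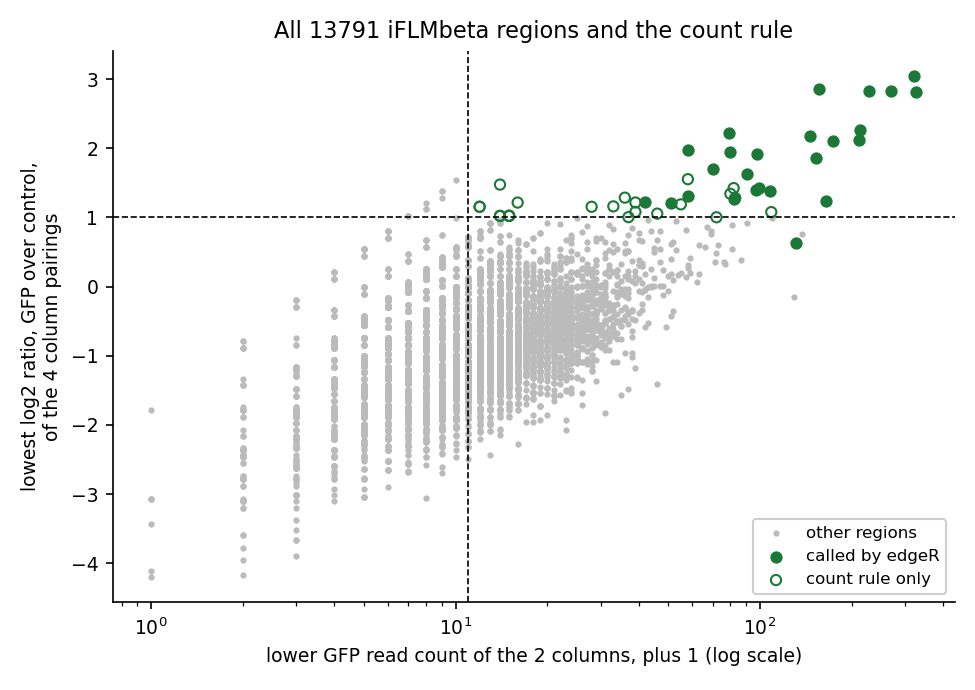
Lowest log2 ratio of GFP over control reads among the 4 column pairings (y axis) against the lower of the 2 GFP read counts plus 1 (x axis, log scale) for all 13791 iFLMbeta regions, with the thresholds of the count rule as dashed lines. Filled green points are the 25 regions called by edgeR, of which 1 lies below the ratio threshold, open green points are the 23 loci that met the count rule only, and grey points are all other regions.

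Most calls did not hold when a column was left out. In such a fit the arm with 1 column takes its spread from the other group. The regions beside SEP3, at AT3G15470 and at AT2G30600 kept their call in each of the 8 alternatives run. The other 22 called regions lost theirs without the first control column, where their adjusted p lay between 0.052 and 0.999. Without the second control column 20 were lost (0.0574 to 1), and without the second GFP column 20 (0.11 to 1). Without the first GFP column 4 were lost (0.0962 to 0.205). The lost calls kept a higher fitted level in iFLMbeta-GFP. Their log2 fold changes were at least 0.80 without the first control column and 1.68 without the second. They were at least 1.86 without the first GFP column and 1.47 without the second. These regions had been called higher on the same columns, so their direction is not separate support. The number of alternatives in which a call was kept is given below beside each adjusted p. The scaled second GFP column exceeded the first at 39 of the 47 loci, with a median log2 difference of 0.28, against -0.03 over all regions.

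Next to genes of floral organ identity lay 2 loci. SEP3, a MADS-box gene of the SEPALLATA family, shares an intergenic locus with AT1G24265 (chromosome 1, 8598646 to 8599006), whose genes start 2720 bp (SEP3) and 1639 bp (AT1G24265) away in opposite directions. It had 228 and 334 GFP reads, against 17 and 5 control reads. Its mean log2 ratio was the highest of all regions at 3.42 (2.82 to 4.02). The locus of ATC followed closely at 3.40 (2.86 to 3.95), so their order cannot be read. The SEP3 locus was called by edgeR (log2 fold change 3.53 ± 0.40 SE, adjusted p = 1.6e-15, kept in 8 of 8 alternatives). SHP2, a MADS-box gene of carpel and fruit development, had a locus 369 bp upstream (chromosome 2, 17819782 to 17819989) that is also 1340 bp upstream of HVA22F. Its 32 and 48 GFP reads stood against 3 and 3 control reads, with a ratio of 2.02 (1.16 to 2.87). The test of edgeR did not call this locus (adjusted p = 0.113).

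Loci lay near genes that activate flowering and near genes that repress it, which does not make those genes their targets. SOC1, a MADS-box activator that integrates flowering signals, had a locus 117 bp upstream of its start (chromosome 2, 18811046 to 18811284). It had 57 and 95 GFP reads, against 12 and 2 control reads, and a ratio of 2.26 (1.31 to 3.22). The call (adjusted p = 0.0137) was kept in 3 of 8 alternatives, with adjusted p up to 1. ATC, a relative of the repressor TFL1, had 155 and 159 GFP reads at a locus 1546 bp upstream (chromosome 2, 11771572 to 11771837), against 11 and 2 control reads. Its ratio was 3.40 (2.86 to 3.95) and its call (adjusted p = 4.01e-09) was kept in 6 of 8 alternatives, with adjusted p up to 0.0976.

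TEM2, a RAV-type repressor of FT, and STN7, a thylakoid kinase that acts in photosynthetic state transitions, lie on either side of another locus (chromosome 1, 25877569 to 25877821). It is 2628 bp upstream of TEM2 and 2144 bp upstream of STN7. The counts were 35 and 38 GFP reads, against 5 and 3 control reads, with a ratio of 1.62 (1.29 to 1.95) and no call (adjusted p = 0.606). COL1, a B-box gene related to the flowering activator CO, had a locus 13 bp upstream (chromosome 5, 5177774 to 5178047). This locus is also 196 bp upstream of AT5G15853 and had 36 and 50 GFP reads, against 9 and 4 control reads. Its ratio of 1.30 (1.00 to 1.60) was just inside the count rule and was not called (adjusted p = 1).

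Loci on the side of 2 members of the AP2 family, TOE3 and AP2, fell outside the assignment window and were not assigned to these genes. The window ran from 3000 bp upstream of a gene to 1000 bp past its end. The first lies between TOE3, an AP2-like gene, and DEAR2, a gene of the DREB group (chromosome 5, 26807855 to 26808098), 3727 bp upstream of TOE3 and 1158 bp past the end of DEAR2. It had 83 and 78 GFP reads, against 9 and 0 control reads. Its mean ratio of 3.37 (2.23 to 4.52) was the third highest, with a range that spans those of SEP3 and ATC. Its call (adjusted p = 0.000241) was kept in 4 of 8 alternatives, with adjusted p up to 0.696. The second lies 2486 bp upstream of LEJ2 and 4784 bp upstream of AP2, which acts in sepal and petal identity (chromosome 4, 17395678 to 17395973). Its 107 and 150 GFP reads stood against 22 and 9 control reads, at a ratio of 1.76 (1.39 to 2.13), and its call (adjusted p = 0.0101) was kept in 3 of 8 alternatives, with adjusted p up to 1.

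On the same arm a further locus followed 13238 bp after the LEJ2 locus (chromosome 4, 17409212 to 17409515), with no gene in its window. It lies 4763 bp upstream of SPT, a bHLH gene of carpel development, and 4913 bp past the end of AT4G36925. It had 71 and 80 GFP reads, against 19 and 7 control reads, at a ratio of 1.28 (1.00 to 1.55). edgeR did not call it (adjusted p = 0.836).

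Of the genes of light signalling, SPA2, a repressor that acts with the ubiquitin ligase COP1, held a locus in an intron (chromosome 4, 6771810 to 6772121). It had 173 and 205 GFP reads, against 20 and 10 control reads, and a ratio of 2.32 (2.10 to 2.55). The adjusted p was 2.19e-06 and the call was kept in 5 of 8 alternatives, with adjusted p up to 0.73. In TT7, which encodes the flavonoid 3'-hydroxylase, an intronic locus had 25 and 13 GFP reads, against 3 and 1 control reads, at a ratio of 1.44 (1.02 to 1.86) and no call.

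**Figure D2:**
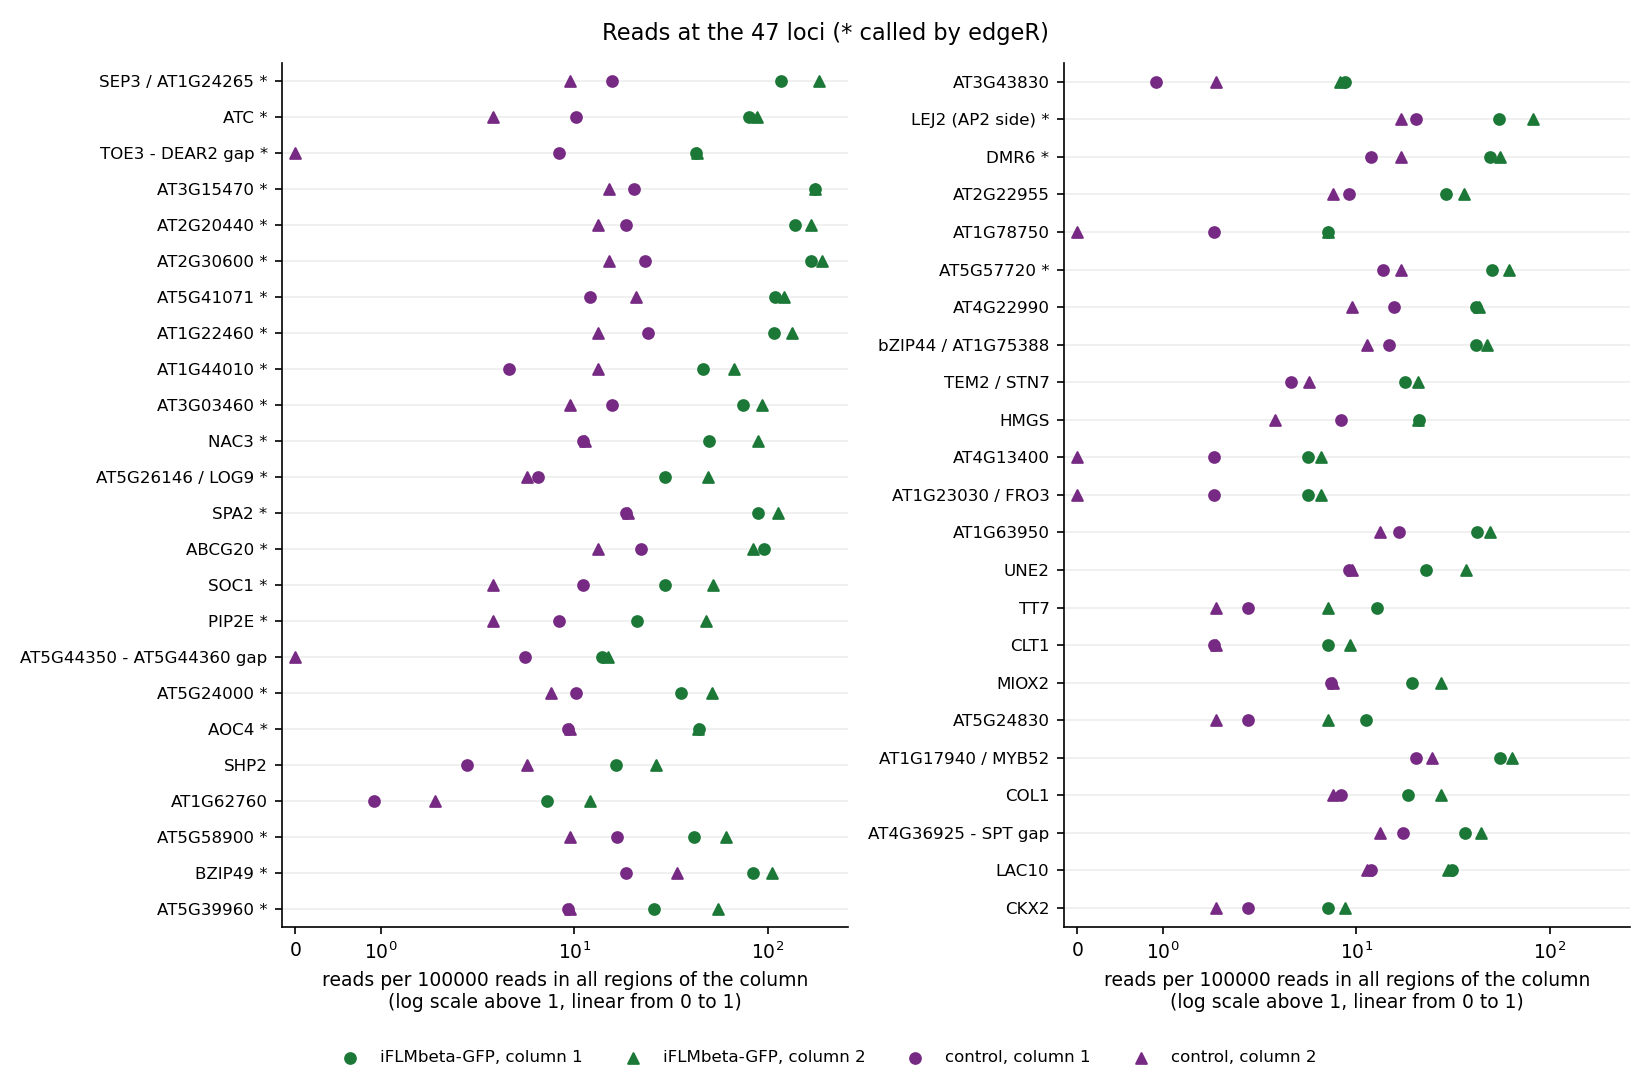
Reads per 100000 reads in all regions of a column (x axis, logarithmic above 1 and linear from 0 to 1) at each of the 47 loci, ordered from the highest to the lowest mean log2 ratio, for the iFLMbeta-GFP columns (green) and the control columns (purple). At every locus both GFP columns lie to the right of both control columns, as the count rule requires, and the distance shrinks from SEP3 to CKX2.

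Other loci lay near single genes of the NAC, bZIP and MYB families of transcription factors. NAC3, a NAC gene responsive to jasmonate and abscisic acid, has a locus 720 bp past its end and 6701 bp upstream of NAC2 (chromosome 3, 5236673 to 5236945), 20125 bp from the locus at AT3G15470. It had 97 and 162 GFP reads, against 12 and 6 control reads, at a ratio of 2.41 (1.92 to 2.90). Its call (adjusted p = 3.3e-05) was kept in 5 of 8 alternatives, with adjusted p up to 1. BZIP49, a bZIP gene, has one 7 bp upstream that is also 814 bp past the end of AT3G56670 (chromosome 3, 20988037 to 20988405). It had 164 and 192 GFP reads, against 20 and 18 control reads. Its ratio was 1.84 (1.24 to 2.45), and the call (adjusted p = 0.000551) was kept in 4 of 8 alternatives, with adjusted p up to 1.

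The bZIP44 locus lies 38 bp past the end of both bZIP44 and AT1G75388, the upstream reading frame of the same transcript (chromosome 1, 28292912 to 28293182). There the counts were 81 and 86 GFP reads, against 16 and 6 control reads, at 1.64 (1.43 to 1.85) with no call (adjusted p = 0.136). MYB52, a MYB gene of cell wall formation, lies 2972 bp downstream of a locus that is also 1422 bp upstream of AT1G17940 (chromosome 1, 6174454 to 6174836). It had 108 and 116 GFP reads, against 22 and 13 control reads, at 1.34 (1.08 to 1.60, adjusted p = 0.222). No other locus without a call had as many GFP reads.

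Some loci lay at or beside single genes of hormone metabolism, which were grouped after their values were seen. AOC4, an allene oxide cyclase of jasmonate synthesis, had a locus in its 3' UTR (chromosome 1, 4548633 to 4548917) with 86 and 79 GFP reads, against 10 and 5 control reads. Its ratio varied little over the pairings at 2.05 (1.95 to 2.14), and its call (adjusted p = 0.0134) was kept in 2 of 8 alternatives, with adjusted p up to 1. DMR6, a salicylic acid hydroxylase that limits immunity, had a locus 2170 bp upstream that is also 3815 bp upstream of TTG1 (chromosome 5, 8376463 to 8376862). The counts were 96 and 101 GFP reads, against 13 and 9 control reads, at 1.76 (1.40 to 2.12), and the call (adjusted p = 0.0297) was kept in 1 of 8 alternatives, with adjusted p up to 1.

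AT5G26146 had a locus 2569 bp upstream (chromosome 5, 9133216 to 9133472). LOG9, of a family of cytokinin-activating enzymes, ends 1707 bp before it, outside the assignment window. It had 57 and 89 GFP reads, against 7 and 3 control reads, at 2.36 (1.98 to 2.75). Its call (adjusted p = 0.00361) was kept in 4 of 8 alternatives, with adjusted p up to 1. CKX2, a cytokinin oxidase, had the lowest mean ratio of the 47 loci, in a coding exon (chromosome 2, 8444761 to 8444923). Its 14 and 16 GFP reads stood against 3 and 1 control reads, at 1.18 (1.02 to 1.34), and edgeR gave an adjusted p of 1.

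A further set of loci lay at genes of transport and metabolism. PIP2E, a plasma membrane aquaporin, had one 26 bp upstream (chromosome 2, 16291331 to 16291570) with 41 and 87 GFP reads, against 9 and 2 control reads. Its GFP columns differed from each other more than at most loci, the ratio was 2.16 (1.23 to 3.09), and the call (adjusted p = 0.0236) was kept in 2 of 8 alternatives, with adjusted p up to 1. ABCG20, an ABC transporter, and RS2Z32, a splicing factor of the SR type, flank a locus 51 bp past the end of ABCG20 and 69 bp upstream of RS2Z32 (chromosome 3, 19837017 to 19837298). It had 186 and 152 GFP reads, against 24 and 7 control reads, at 2.27 (1.87 to 2.66), called in 5 of 8 alternatives (adjusted p = 3.12e-05 and up to 0.671). GDPD2, a glycerophosphodiester phosphodiesterase, lies 915 bp downstream of a locus that is 577 bp past the end of AT5G41071 (chromosome 5, 16440693 to 16440965). That locus had 212 and 221 GFP reads, against 13 and 11 control reads, at 2.75 (2.27 to 3.24), called in 6 of 8 alternatives (adjusted p = 2.73e-09 and up to 0.617).

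Among metabolic genes with a locus that was not called, HMGS, of the mevalonate pathway, had 41 and 38 GFP reads 1552 bp upstream, against 9 and 2 control reads. MIOX2, a myo-inositol oxygenase, had 38 and 50 GFP reads 1447 bp upstream, against 8 and 4 control reads. LAC10, a laccase, had 61 and 54 GFP reads 517 bp past its end, against 13 and 6 control reads. Their mean ratios were 1.57, 1.42 and 1.25, and edgeR gave adjusted p of 0.996, 0.858 and 1. MDAR6, a monodehydroascorbate reductase, ends 798 bp before a locus 306 bp upstream of AT1G63950. There 82 and 90 GFP reads stood against 18 and 7 control reads, with pairings from 1.28 to 1.72 (adjusted p = 0.233).

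Several of the strongest loci lay at genes known here by their locus identifiers only. The 3' UTR of AT3G15470 (chromosome 3, 5216243 to 5216547) had 341 and 321 GFP reads, the highest of the first GFP column, against 22 and 8 control reads, and lies 133 bp upstream of AT3G15460. AT2G30600, with a locus 13 bp upstream (chromosome 2, 13036705 to 13037020), had 326 and 347 GFP reads, against 25 and 8 control reads. AT2G20440 and AT2G20450, which are divergent, share a locus 36 bp and 181 bp upstream of their starts (chromosome 2, 8813531 to 8813830). It had 268 and 304 GFP reads, against 20 and 7 control reads. Mean ratios of these 3 loci lay close together at 3.21 (3.05 to 3.38), 3.15 (2.81 to 3.49) and 3.15 (2.83 to 3.47), and their order cannot be read from these libraries. All 3 were called, with adjusted p of 9.68e-16, 1.35e-15 and 4.33e-14, and the AT2G20440 call ended in 1 of 8 alternatives (0.052).

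AT1G22460 had a locus in its 5' UTR (chromosome 1, 7930354 to 7930713) with 210 and 244 GFP reads, against 26 and 7 control reads. AT3G03460 had one 162 bp past its end that is also 232 bp upstream of AT3G03456 (chromosome 3, 822624 to 822925). It had 145 and 170 GFP reads, against 17 and 5 control reads. AT1G44010 had one 916 bp upstream (chromosome 1, 16713567 to 16713844) with 90 and 122 GFP reads, against 5 and 7 control reads. All 3 were called, at 1.26e-08, 2.19e-06 and 7.65e-05 by edgeR's adjusted p, and each call was kept in 5 of 8 alternatives, with adjusted p up to 0.328, 0.431 and 0.781. Their mean ratios lay between 2.61 and 2.64.

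In the lower part of the called regions, AT5G24000 had 69 and 94 GFP reads in a coding exon (chromosome 5, 8112524 to 8112823), against 11 and 4 control reads. That locus is also 1121 bp upstream of AT5G24010. AT5G58900 had 81 and 111 GFP reads in its 5' UTR (chromosome 5, 23785139 to 23785408), against 18 and 5 control reads. AT5G57720 had 98 and 112 GFP reads 214 bp upstream (chromosome 5, 23391687 to 23391982), against 15 and 9 control reads. These 3 loci, with mean ratios of 2.08, 1.85 and 1.75 and adjusted p of 0.0134, 0.0311 and 0.0236, kept their calls in 3, 1 and 2 of 8 alternatives, with adjusted p up to 1 at each. AT5G39970 and AT5G39960 share a locus 551 bp upstream of AT5G39970 and 415 bp past the end of AT5G39960 (chromosome 5, 15997330 to 15997617). It had 50 and 101 GFP reads, against 10 and 5 control reads, at 1.84 (1.21 to 2.47), and its call (adjusted p = 0.0323) was kept in 1 of 8 alternatives, with adjusted p up to 1. AT5G06130, the called region outside the count rule, had 130 and 146 GFP reads in its 5' UTR (chromosome 5, 1855711 to 1856020), against 13 and 22 control reads. This region is also 2484 bp upstream of AT5G06125. Its ratio fell to 0.63 in its lowest pairing, and its call (adjusted p = 0.0402) was kept in 0 of 8 alternatives, with adjusted p from 0.0993 to 1.

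The remaining loci were not called. AT2G22955, a non-coding RNA gene 950 bp past the end of the calcium pump gene ACA7 and 177 bp upstream of AT2G22960, had 57 and 66 GFP reads, against 10 and 4 control reads, at 1.76 (1.55 to 1.96). AT4G22990 had 81 and 79 GFP reads in its 5' UTR, against 17 and 5 control reads, at 1.65. UNE2 had 45 and 67 GFP reads 698 bp upstream, against 10 and 5 control reads, at 1.47. A set of 10 loci rested on at most 30 GFP reads in each column, CKX2 and TT7 among them. The others were the gap between AT5G44350 and AT5G44360 (27 and 27 GFP reads, against 6 and 0), AT1G62760, AT3G43830, AT5G24830, CLT1, AT1G78750, AT4G13400 and the gap between FRO3 and AT1G23030.

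Of those, 6 had 3 control reads or fewer in both columns together, so their ratios are poorly fixed. The scaled ratio of summed reads was 7.71-fold at AT1G62760, with an exact 95% interval of 1.98 to 66.1 for counting error only. At AT4G13400 and at the FRO3 gap it was 4.92-fold (1.22 to 43.1 at each), and these 2 had too few reads to be tested by edgeR. The intervals at AT3G43830, CLT1 and AT1G78750 began at 1.75, 1.38 and 1.45. Reads amplified by PCR are not independent molecules, so the intervals are too narrow.

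The threshold of the count rule cut through a continuous range. Just inside it, with a lowest pairing between 1.00 and 1.02, were CKX2, CLT1, AT1G62760, AT5G24830, TT7, COL1 and the SPT gap. Just outside, at 0.99, lay the region between SMZ and TON1A (24 and 51 GFP reads, against 6 and 1 control reads) and one 4346 bp from TIP2 (109 and 111, against 20 and 14). HEC1, a bHLH gene of carpel development, and TPS7 followed at 0.96. In all, 152 further regions had a mean ratio of at least 1 and at least 10 reads in each GFP column but failed a pairing.

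Read by gene lists that were chosen with earlier results of these data known, the loci touched 6 of 113 listed genes. A gene counted where a region centre lay in its window. Of 40 flowering time genes 3 had a locus (ATC, SOC1 and TEM2), or 7.5%, and 2 had a called region (ATC and SOC1). Of 19 floral organ identity genes 2 had a locus (SEP3 and SHP2), or 10.5%, and SEP3 had a called region. Of 18 light and temperature genes SPA2 alone had a locus (5.56%), which was also called. Among all 27444 protein-coding genes 63 had a locus, or 0.23%, and 31 a called region, or 0.113%. None of 15 clock genes, 12 gibberellin genes and 9 highly transcribed control genes had a locus. The share of genes with any deposited region was 67.5% for flowering time, 94.7% for floral organ identity and 94.4% for light and temperature, against 48.5% of all genes.

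Most genes of the lists did not stand apart. The median mean log2 ratio of the highest region per gene was 0.06 for the 27 flowering time genes with a region, 0.15 for 18 floral organ genes and -0.03 for 17 light and temperature genes, against -0.09 for 13309 protein-coding genes with a region. It was 0.28 for 7 clock genes, 0.17 for 7 gibberellin genes and -0.09 for 5 control genes, where the highest value was 0.48. A further 4 listed genes, named after their values were seen, had a mean ratio of at least 1 and at least 10 reads in each GFP column but failed in a pairing. They were the flowering repressor SMZ (1.95, lowest pairing 0.99), the floral organ genes ALC (1.58, 0.58) and AP3 (1.43, 0.31), and the cold response gene CBF1 (1.46, 0.54). At ALC, a bHLH gene of fruit opening, the counts were 65 and 99 GFP reads 87 bp upstream, against 9 and 11 control reads. CBF1 had 80 and 106 GFP reads, against 30 and 5 control reads, so its ratio depended on the control column.

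**Figure D3:**
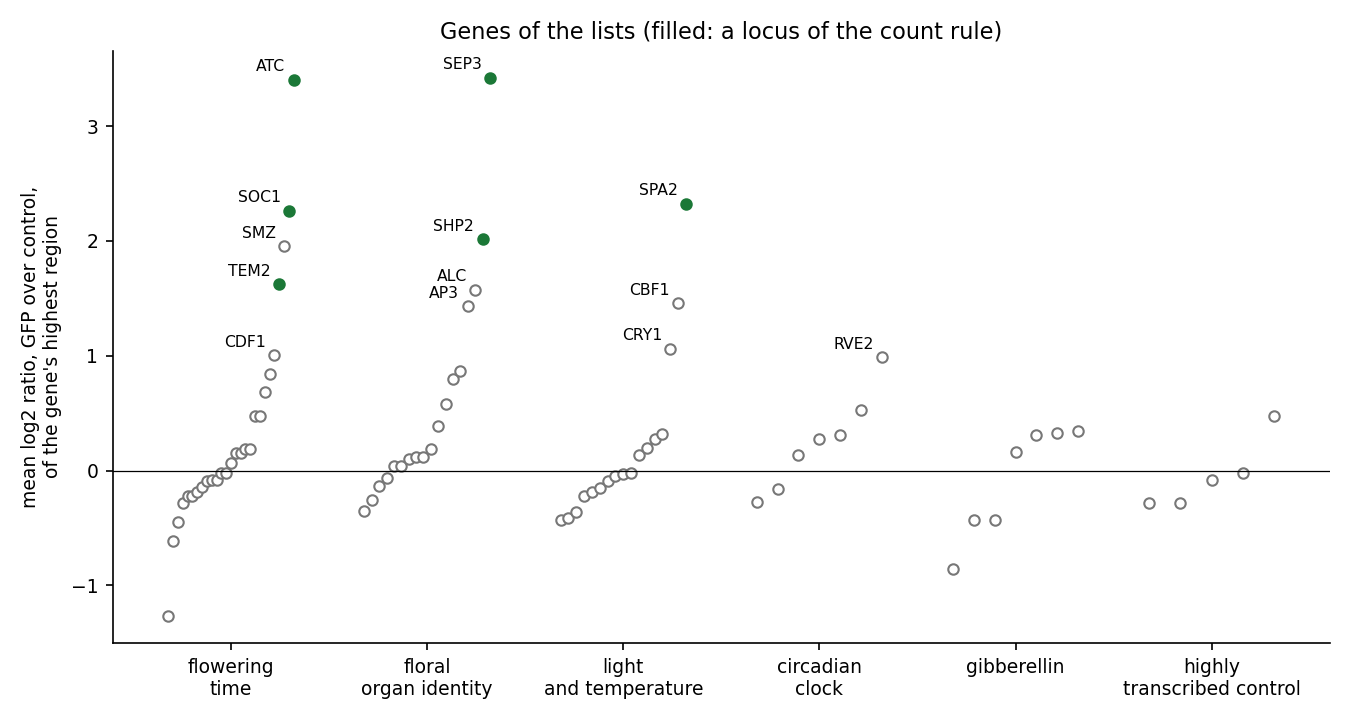
Mean log2 ratio of GFP over control reads at the highest deposited region of each listed gene (y axis), by gene list (x axis), with genes in rising order within a list and filled points for genes with a locus of the count rule. The 6 filled points are ATC, SOC1, TEM2, SEP3, SHP2 and SPA2, and the highest of the transcribed control genes stands at 0.48.

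The places of the loci were a measure that the count rule did not use. Of the 47 centres 34 were intergenic, or 72.3%, against 45.9% of all 13791 regions. Intergenic centres within 1000 bp upstream of a gene made up 36.2% of the loci, against 18.2% of all regions, and those within 200 bp 17.0%, against 7.06%. The 8 intergenic loci within 200 bp were those of SOC1, PIP2E, BZIP49, COL1, RS2Z32, AT1G62760, AT2G20440 and AT2G30600. Coding exons held 2 loci (AT5G24000 and CKX2), or 4.26%, against 27.4% of all regions. Among the intergenic loci 12 lay between divergent genes (35.3%, against 33.4% of intergenic regions) and 21 between genes in tandem (61.8%, against 53.8%). Only 1 lay between convergent genes (2.94%, against 12.8%). Because 23 loci had more than 1 gene in the window (48.9%, against 49.7% of all regions), a locus does not name a single target gene.

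**Figure D4:**
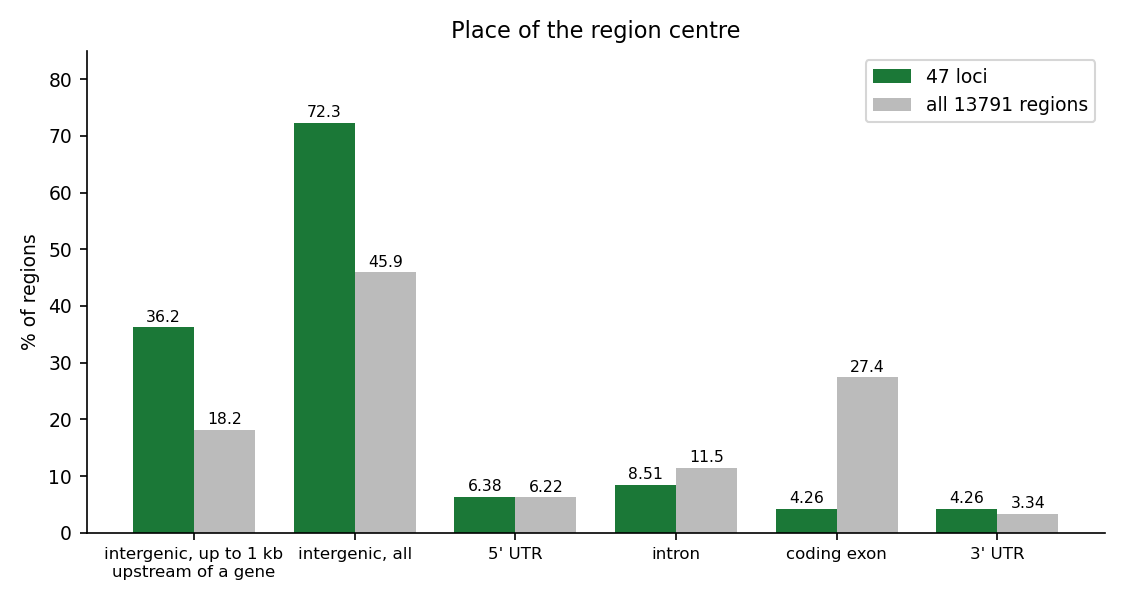
Share of region centres (y axis, %) by place relative to annotated genes for the 47 loci (green) and all 13791 regions (grey), as the deposited table annotates them. Intergenic centres made up 72.3% of the loci against 45.9% of all regions, and coding exons 4.26% against 27.4%.

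The loci were also wider than other regions. Their median size was 274 bp, against 156 bp over all regions, with a range of 132 to 400 bp, and size follows the authors' region calling on the same reads. Another deposited region lay within 5000 bp of 27 loci. Of these 50 neighbouring regions 0 were loci, where 0.341% of all regions are, and 4 had all pairings above 0, where 7.23% of all regions do. Chromosome 5 held 14 loci and chromosomes 3 and 4 held 6 each, or 29.8%, 12.8% and 12.8%, against 22.6%, 20.1% and 15.4% of all regions.

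The same positions could be read in libraries that the count rule did not use. The gFLM libraries (3 gFLM-GFP against 3 controls) came from seedlings grown for 15 days at 16 °C, so construct, age and temperature differ together, and their ratios were scaled within their own table. Unlike in iFLMbeta, a replicate here is a gFLM-GFP column paired with the control column of the same number. The lowest replicate and the SD depend on that pairing. A deposited gFLM region overlapped 40 of the 47 loci (85.1%, against 17.1% of all iFLMbeta regions). At 37 of these 40 the gFLM ratio was above 0 in every replicate, or 92.5%, against 17.9% of the 2352 overlapping regions. The median gFLM ratio was 2.67 at the loci, against -0.13 over all overlapping regions. edgeR called 22 of the 39 loci it could test in gFLM, or 56.4%, against 31 of the 1188 tested iFLMbeta regions with a gFLM overlap (2.61%) and 0.612% of all tested gFLM regions. The gFLM table lists only regions the authors selected, so the share above 0 is not that of unselected positions.

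Single loci differed in order between the constructs, and this difference was not tested. AT2G22955 had 290, 64 and 51 GFP reads in gFLM, against 3, 0 and 6 control reads, at 4.02 ± 0.85 (SD, n = 3), where iFLMbeta stood at 1.76. It was called in gFLM (adjusted p = 5.01e-05, edgeR) and not in iFLMbeta. The LEJ2 locus had 429, 87 and 118 GFP reads in gFLM, against 15, 0 and 16 control reads, at 3.66 ± 0.62 (SD, n = 3). Loci called in gFLM but not in iFLMbeta were those at AT2G22955, bZIP44, AT1G63950 and TT7. Those called in iFLMbeta but not in gFLM were at AT5G57720, DMR6, AT5G24000, AT5G26146, AOC4 and PIP2E. At PIP2E gFLM gave 149, 18 and 24 GFP reads, against 4, 5 and 12 control reads, a ratio of 1.49 ± 2.06 (SD, n = 3) with the lowest replicate at -0.45. HMGS and COL1 also had a gFLM replicate below 0. The 7 loci with no gFLM region had at most 27 GFP reads in an iFLMbeta column.

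**Figure D5:**
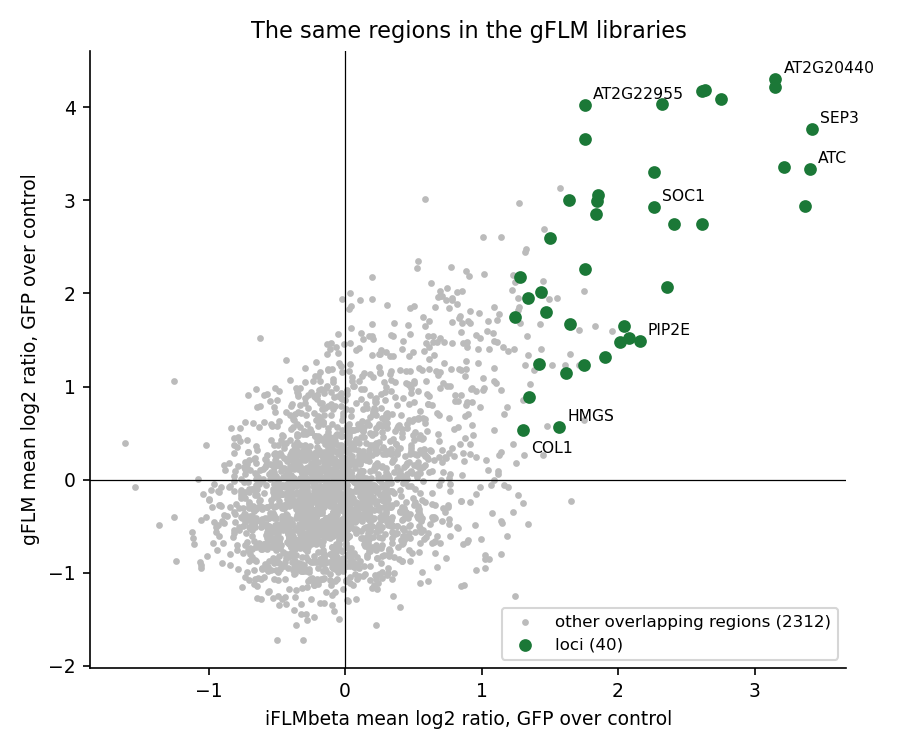
Mean log2 ratio of GFP over control reads in the gFLM libraries (y axis) against that in the iFLMbeta libraries (x axis) at the 2352 iFLMbeta regions that overlap a deposited gFLM region, each scaled within its own table. The 40 loci (green) have gFLM ratios between 0.53 and 4.31, and the other regions (grey) centre near 0.

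For iFLMdelta, also grown for 10 days at 23 °C, a deposited region overlapped 2 of the 47 loci. At AT1G17940 the iFLMdelta-GFP libraries had 31 and 21 reads, against 23 and 12 in the iFLMdelta controls, a ratio of -0.33. At UNE2 they had 27 and 4 reads, against 6 and 7, a ratio of -0.26. The iFLMdelta table holds no values at the other 45 loci, and edgeR called 0 of 4607 iFLMdelta regions (0%).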

How the data were processed

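ChIP-seq libraries were, per the labels' protocols, amplified by PCR and run on a Genome Analyzer II. Coordinates are in TAIR10, which the submitters' processing notes name. Which programs mapped the reads and called the regions, and what was done with duplicates, is not given in the sources used here. For each region the authors deposited whole-number read counts per region with no normalization, and q-values (Benjamini-Hochberg p-values per replicate), per the file headers. The q-values were used in 1 alternative only. Total mapped reads per library are not given.

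The members, gene lists and rules were chosen with earlier results of these data known. The named genes are those of all called regions, of the 30 loci with the highest mean ratio and of listed genes with a locus or call. The other loci are named because they are few. At some loci without a call, further genes of the window are not named. edgeR 4.0.16 in R 4.3.3 was run with TMM and filterByExpr on iFLMbeta-GFP against iFLMbeta control, and on the whole gFLM and iFLMdelta tables. DESeq2 1.42.0, Python 3.11.15 and scipy 1.17.1 were also used. SE is the log2 fold change over the square root of its F statistic. Overlap meant 1 bp or more.

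Distances run from a region's centre to the near edge of a gene, as the deposited table gives them. Some rows are cut short, and 1131 lack the strand of the right-hand gene, which then was assigned no region. Symbols come from RefSeq (TAIR10.1), where all 113 listed genes matched. SOC1, TEM2 and FLM stand for AGL20, RAV2 and MAF1 there. All columns had a group: 0 were left without one. No genome was used, so the planned count of CArG boxes was not run.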

Additional observations from a re-analysis of the deposited data

How the results depend on the processing

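The number of regions called higher in iFLMbeta-GFP was 25, and 20 with DESeq2 or 21 with scaling by column sums. It was 14 without the filter on low counts and 14 with the column number as a replicate block. Leaving out 1 column gave 3 to 23 calls. The deviations of the GFP and control columns correlated at -0.086 across 7337 regions. At median control counts of 9 and 4 reads in these regions, this value cannot show whether columns of the same number were prepared together. The 47 loci became 21 with a pseudocount of 5, 165 with a log2 ratio of at least 0.5, 17 with at least 1.5, and 112 to 384 without 1 column, where fewer pairings had to pass. They became 38 with at least 20 GFP reads, 54 with TMM scaling and 42 with the authors' q-value of at most 0.05 in both replicates. With a window of 1500 bp upstream to 500 bp past the end, 3 listed genes kept a locus in place of 6. The loci of SEP3, TEM2 and ATC fell outside this shorter window, at 2720, 2628 and 1546 bp upstream. At an overlap of at least 0.5 of the length of the shorter region, 37 loci still had gFLM ratios above 0 in every replicate. No called region changed its direction in any alternative, but these regions had been selected as higher on the same columns. The cause was not tested where counts moved with the pseudocount, the filter or the block. Control counts of 0 to 26 reads at the loci limit the precision of every ratio.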
